A study of Homo sapiens with 14 samples.

Results

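Translation efficiency, the number of ribosome footprints on a messenger RNA relative to the amount of that RNA, was measured gene by gene in control HepG2 cells, a human line established from a liver tumour. The members were the genes with at least 5 RPKM (reads normalised to transcript length in kilobases and to library size) in the control RNA-seq library, which kept 7365 of the 21574 rows of the expression table. The lowest level kept was 5.0041 RPKM and the highest left out 4.99637 RPKM. For each of the 2 control Ribo-seq libraries, the efficiency of a gene was log2 of (Ribo-seq RPKM + 1) over (RNA-seq RPKM + 1), and the value given below is that log2 ratio minus its median over the 7365 genes, called relative log2 translation efficiency. A value of 0 therefore marks the typical gene, and 1 marks a gene with 2-fold more footprints for its RNA than the typical gene.

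The study silenced ADAR1, the enzyme that converts adenosine to inosine in double-stranded RNA, and compared RNA structure, RNA level and ribosome occupancy between knock-down and control cells in 14 libraries. The control cells carried scrambled siRNA and the knock-down (KD) cells siADAR1, and the labels describe both as stably transfected. RNA-seq was made once per condition and Ribo-seq in 2 replicates per condition. The study describes the Ribo-seq replicates as biological and does not say what they shared. The p-values below rest on the spread between these libraries, and the single RNA-seq library was assumed to vary like the Ribo-seq libraries.

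In ribosome profiling, RNA that is not covered by a ribosome is digested and the protected fragments are sequenced, so that the density of fragments on a reading frame reports how many ribosomes were on it. The ratio to RNA-seq separates messages that load many ribosomes from those that are kept out of translation by a structured leader, an upstream reading frame, a bound repressor or retention in the nucleus. Histone messages, ferritin and the messages of the ribosome itself are classical examples of genes regulated at this step. Fragments protected by other complexes, such as small ribonucleoproteins and the ribosome's own RNA, also enter such libraries.

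The Ribo-seq libraries were shallow. The low RPKM values were whole multiples of 1 read, which gave a depth of 40729941 reads for the RNA-seq control library, 995682 for Ribo-seq control replicate 1 and 3322918 for replicate 2. The median tested gene had 2499 reads in RNA-seq, 42 in replicate 1 and 118 in replicate 2. In replicate 1, 897 tested genes had under 10 reads and 52 had none. In replicate 2, the counts were 164 and 29. A single row, which holds the 5.8S ribosomal RNA, took 24.7% of the reads of replicate 1, 42.5% of those of replicate 2 and 0.0598% of those of RNA-seq. The HepG2 label was checked against 25 products and regulators of hepatocytes. In the control RNA-seq library 14 of the 25 were at 0 and 1 exceeded 5 RPKM, namely VTN at 28.7 RPKM. Albumin (ALB), alpha-fetoprotein (AFP), APOB, TTR and FGB were listed at 0 in all 3 control libraries, and the summed level of the 25 genes was 30.7 RPKM in RNA-seq, 33.8 in Ribo-seq replicate 1 and 5.60 in replicate 2. The defining genes of hepatocytes were therefore absent, and the cells are called here by their label. In bulk samples such as these, fewer cells that express a gene cannot be told apart from less RNA per cell.

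Footprint levels followed RNA levels in both replicates, with a Pearson correlation across the 7365 genes of 0.723 for replicate 1 and 0.813 for replicate 2 on the log2 scale. The efficiency itself was less reproducible. Its correlation between the control replicates was 0.499 (Spearman 0.480), which includes the RNA-seq library that both share, and 4903 genes (66.6%) lay on the same side of the median in both. Replicate 1 spread more widely, with a standard deviation of 1.27 against 0.93 in replicate 2. The difference between replicates had a standard deviation of 1.14 over all tested genes. Among the 1661 genes with at least 100 reads in both Ribo-seq libraries it was still 0.85, against a median of 0.136 that counting error alone would give. Control replicate 1 resembled KD replicate 1 (0.948) and control replicate 2 resembled KD replicate 2 (0.852) more closely than the control replicates resembled each other.

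Under limma's moderated test, 17 genes had a translation efficiency above the typical gene at a Benjamini-Hochberg adjusted p under 0.05 (0.231% of the 7365) and 1 gene lay below it (0.0136%). The unadjusted p was under 0.05 for 249 genes. The 17 genes were 11 replication-dependent histone genes, the structured RNAs RMRP and RPPH1, the row with 5.8S rRNA, the snoRNA host SNHG12, the ribosomal protein gene RPS27 and SEC61G, a subunit of the channel through which secreted proteins enter the endoplasmic reticulum. As a description without a test, 514 genes (6.98%) lay at least 2-fold above the median in both replicates and 215 (2.92%) at least 2-fold below it. All 17 of the high genes and the single low gene were among them. Of the 215 low genes, 74 had under 10 reads in replicate 1 and 18 had none in at least 1 Ribo-seq library, against 3 and 0 of the 514 high genes. When the 3 KD libraries were added to estimate the spread, no gene passed in either direction (445 had an unadjusted p under 0.05). When the same fit was given a term for the replicate number of the Ribo-seq libraries, an alternative chosen after seeing the data, 963 genes were called high and 1181 low. The number of calls thus depended on how the spread was estimated. Leaving out replicate 1 or replicate 2 gave 8 and 11 high genes and no low gene, in fits that took the spread from the KD Ribo-seq pair and assumed that the lone control libraries vary like it.

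**Figure D1:**
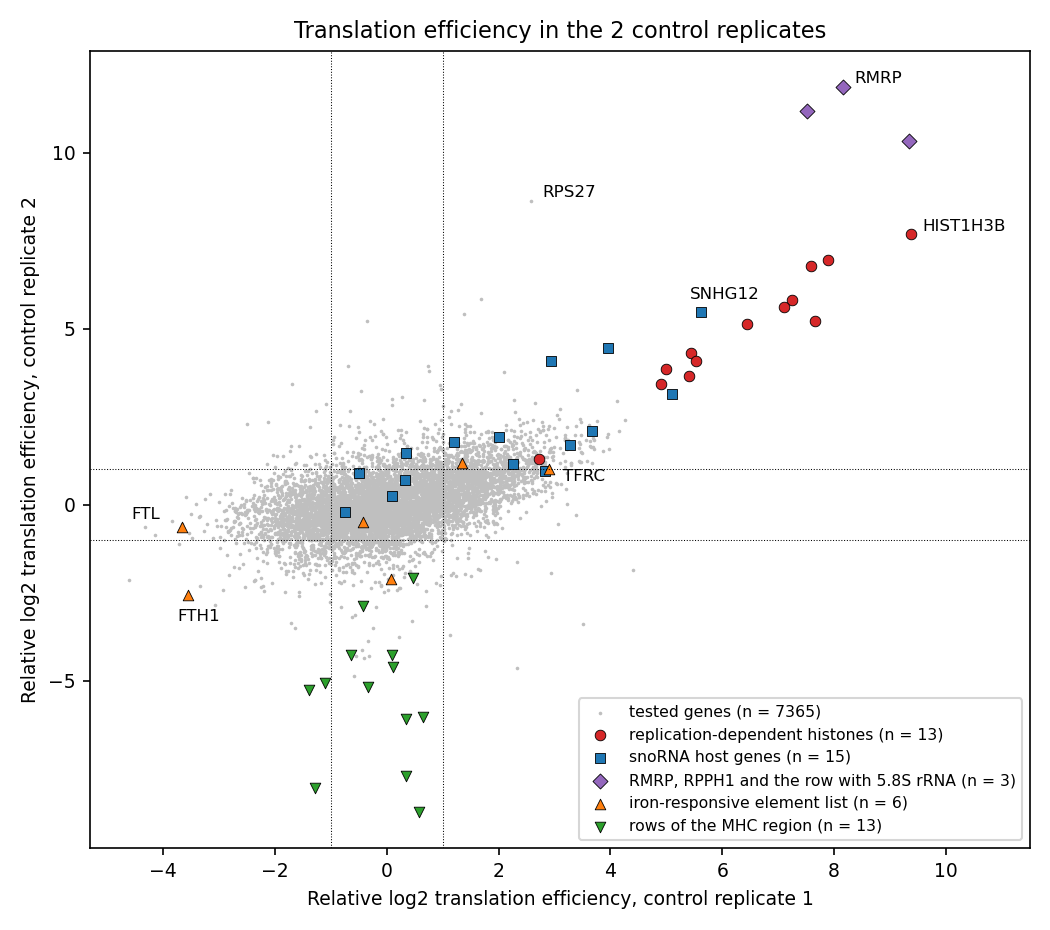
Relative log2 translation efficiency of each of the 7365 tested genes in control replicate 1 (horizontal axis) and control replicate 2 (vertical axis). Dotted lines mark 2-fold above and below the median. The 13 histone genes lie above 1 on both axes, FTH1 lies below -2 on both, and the 13 rows of the MHC region lie below -2 in replicate 2 only.

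The replication-dependent histones, which package newly copied DNA and are made in S phase, carried the most footprints for their RNA of any list examined. All 13 tested members lay at least 2-fold above the median in both replicates, with a median of 6.44 in replicate 1 and 5.14 in replicate 2. HIST1H3B, which encodes histone H3, had 5.67 RPKM in RNA-seq and 2773 and 736 RPKM in the Ribo-seq replicates, a relative log2 efficiency of 9.38 and 7.68 (limma difference 8.37, SE 1.11, adjusted p = 4.63e-08). All 13 were above RNA-seq in both Ribo-seq libraries, and each had the higher footprint level in replicate 1. HIST1H3H had 7.63 RPKM in RNA-seq and 1280.4 and 571 RPKM in Ribo-seq (7.90 and 6.94). HIST1H1C, a linker histone with the highest RNA level of the list, had 76.9 RPKM in RNA-seq against 2107 and 830.5 RPKM in Ribo-seq (5.44 and 4.31, adjusted p = 0.0415 by limma). HIST1H2AC, an H2A gene, had 43.9 RPKM in RNA-seq and 1299 and 407 RPKM in Ribo-seq (5.54 and 4.08, adjusted p = 0.0345 by limma). HIST1H2BK (4.90 and 3.43) and HIST3H2A (2.72 and 1.30) were the members that did not pass the limma test, with adjusted p of 0.12 and 0.989.

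These messages end in a conserved stem-loop in place of a poly(A) tail, and the loop binds the protein SLBP, which takes over the role of the tail in translation. A pattern for this element, GGNNCT then NTTN then AGNNCC without gaps (N, any base; sense strand), was found in the 3′UTR of the canonical transcript of all 13 tested histone genes. It occurred in 0.334% of the 6885 tested genes with a coding region, 23 in number. The element is shown for the members with the highest and lowest efficiency, for a linker histone and for HIST2H2BE, whose annotated transcript runs on for 1729 bases after it, with the 16 matched letters in capitals. All lie in the 3′UTR of the only exon of the gene, on build GRCh37 with GENCODE transcripts.
HIST1H3B, chr6:26031820-26031845, minus strand: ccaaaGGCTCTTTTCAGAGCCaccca
HIST1H1C, chr6:26055968-26055992, minus strand: caaaaGGCTCTTTTCAGAGCCacca
HIST2H2BE, chr1:149857733-149857758, minus strand: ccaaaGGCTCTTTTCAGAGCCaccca
HIST3H2A, chr1:228645065-228645090, minus strand: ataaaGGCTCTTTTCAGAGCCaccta
H2AFX, chr11:118965603-118965628, minus strand: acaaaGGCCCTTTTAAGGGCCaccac
The other 10 tested genes that hold the same letters had median efficiencies of -0.29 and -0.22, and 1 of them, CAPZA1, was at least 2-fold high in both replicates. H2AFX, a replacement-type H2A gene shown in the last line, was among the 10, with values of -0.53 and -0.33.

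The labels give the same protocol text, with isolation of poly(A) RNA, for every library and do not describe how the footprints were prepared. Where RNA-seq was made from poly(A)-selected RNA, its level for a message without a tail is the part that the selection let through. The share of the ratio owed to this was not tested, but the levels can be set out. The table holds 69 rows of this family, of which 56 were under 5 RPKM in RNA-seq and so were not tested. Those 56 rows had a median of 0.234 RPKM in RNA-seq, 132 RPKM in Ribo-seq replicate 1 and 42.0 RPKM in replicate 2, and 38 of them were higher in both Ribo-seq libraries than in RNA-seq. Reads were counted only where they were placed uniquely, so that reads shared by near-identical histone genes are missing. Summed over the 69 rows, the family had 310.4 RPKM in RNA-seq, 34437 in replicate 1 and 11548 in replicate 2. The summed ratio was 111 and 37.2 in control cells, and 91.4 and 63.6 in KD cells. By contrast, the 10 tested histone genes outside this family (a set chosen after its values were seen) had median efficiencies of 0.16 and -0.29. Of these, H2AFV lay at least 2-fold above the median in both replicates (1.12 and 1.76), H2AFZ had 116 RPKM in RNA-seq and 265 and 78.2 RPKM in Ribo-seq, and none was 2-fold low.

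**Figure D2:**
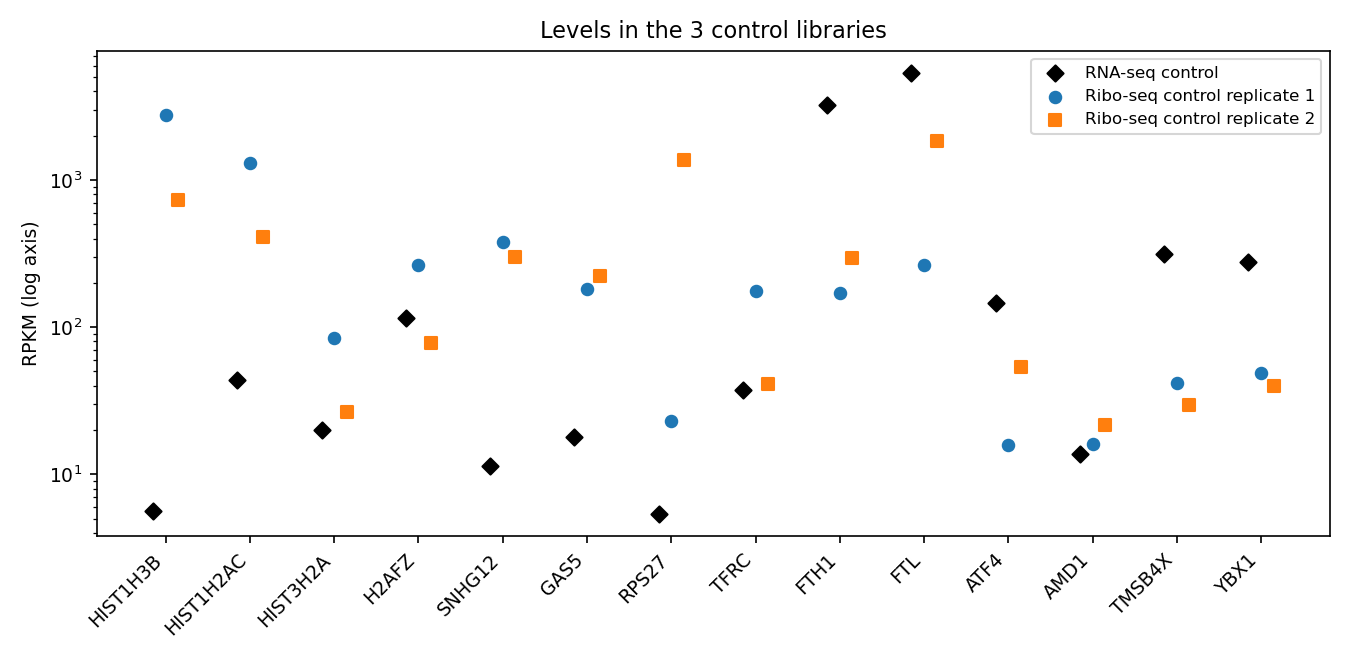
RPKM of 14 genes in the 3 control libraries, on a log axis. Points are single libraries. Both Ribo-seq libraries lie above RNA-seq for HIST1H3B, HIST1H2AC, HIST3H2A, SNHG12, GAS5, RPS27, TFRC and AMD1, and both lie below it for FTH1, FTL, ATF4, TMSB4X and YBX1.

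Rows with no annotated protein were found at both ends. Of the 136 tested rows whose transcript is annotated as noncoding, 16 (11.8%, against 6.98% of all tested genes) were at least 2-fold high in both replicates and 18 (13.2%, against 2.92%) at least 2-fold low. RMRP, the RNA of the ribonuclease that processes ribosomal RNA in the nucleolus and mitochondrial primers, had 5.68 RPKM in RNA-seq and 1188 and 13391 RPKM in Ribo-seq (8.16 and 11.86, limma adjusted p = 4.92e-09). RPPH1, the RNA of the related enzyme that trims transfer RNA precursors, had 7.34 RPKM in RNA-seq and 951 and 10414 RPKM in Ribo-seq (7.52 and 11.18). Both had over 10-fold more RPKM in replicate 2 than in replicate 1, whereas the 13 histone genes were higher in replicate 1. These RNAs sit in ribonucleoproteins and are not translated, so their ratio is not an efficiency of translation in the usual sense.

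Among the 15 tested rows of snoRNA host genes, whose introns give rise to small nucleolar RNAs, 9 (60%) lay at least 2-fold above the median in both replicates, against 6.98% of all tested genes, and none at least 2-fold below. The list medians were 2.25 and 1.69. Of the 15 rows, 14 also name the snoRNAs of the introns, whose reads cannot be told apart from those of the host, and the rows of MATR3 with SNHG4 (2.25 and 1.14) and of RCC1 with SNHG3 hold a protein gene. Without these, 8 of 13 rows (61.5%) were 2-fold high, with medians of 2.84 and 1.78. SNHG12 had 11.4 RPKM in RNA-seq and 379 and 298 RPKM in Ribo-seq (5.62 and 5.48, limma adjusted p = 0.000762). GAS5, a transcript known to be degraded when it is translated, had 17.8 RPKM in RNA-seq and 182 and 223 RPKM in Ribo-seq (3.96 and 4.46), and SNHG1 had 17.3, 389 and 86.7 RPKM (5.10 and 3.15). Their limma adjusted p were 0.0566 and 0.0803. The lowest member was the shared row of RCC1 and SNHG3, at -0.74 and -0.21.

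Of the 14 long noncoding RNAs of the list, which also holds RMRP and RPPH1, 6 were above the median in both replicates and 2 below it in both. Of all 7365 tested genes, 2452 were above and 2451 below in both. At least 2-fold high in both were 4 (28.6%, against 6.98% of all tested genes), namely RMRP, RPPH1, MALAT1 and MIR22HG. At least 2-fold low in both was 1 (7.14%, against 2.92%). MALAT1, a nuclear RNA, had 6.85 RPKM in RNA-seq, 14.6 in replicate 1 and 241 in replicate 2 (1.68 and 5.84). NEAT1, the scaffold of nuclear paraspeckles, had 184, 7.80 and 45.2 RPKM (-3.71 and -1.11) and was the low member. H19, the most abundant RNA tested, had 10738 RPKM in RNA-seq and 597 and 2985 RPKM in Ribo-seq (-3.49 and -0.95). All 3 had more footprints for their RNA in replicate 2 than in replicate 1, and the list medians differed in sign (-0.53 and 0.69).

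Among rows with no noncoding name, the 12 highest were 11 histone genes and SEC61G, which had 22.1 RPKM in RNA-seq and 593 and 150.5 RPKM in Ribo-seq (5.36 and 3.60, limma adjusted p = 0.041). The next 8 outside the histone genes, taken after the values were seen, were RPS27, SYPL1, ANKRD32, MMADHC, ATP6V1A, CNIH, PPP1CB and SSR3. ANKRD32 had 5.23 RPKM in RNA-seq and 40.04 and 31.3 RPKM in Ribo-seq (3.40 and 3.27). ATP6V1A, a catalytic subunit of the lysosomal proton pump, had 7.63, 57.9 and 24.2 RPKM (3.45 and 2.44). SSR3, a subunit of the translocon-associated complex, had 9.86, 40.3 and 29.96 RPKM (2.61 and 2.40). None of the 8 except RPS27 passed the limma test. RPS27 itself was the least reproducible of the called genes, with 22.9 RPKM in replicate 1, from 8 reads, and 1361 RPKM in replicate 2, from 1587 reads. Its RNA-seq level was 5.39 RPKM, from 77 reads, close to the minimum of 5 RPKM.

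The lowest of these rows was FTH1, the heavy chain of the iron store ferritin. It had 3234 RPKM in RNA-seq and 172 and 296 RPKM in Ribo-seq, a relative log2 efficiency of -3.55 and -2.55 (limma difference -3.21, SE 1.17, adjusted p = 0.931). The KD libraries, which the ranking did not use, gave -4.78 and -2.35. FTH1 was called low by limma under quantile normalization and among the 1683 genes with more than 100 reads in every control library, an alternative chosen after seeing the data that replaced the RPKM minimum and let in 46 genes under it. The light chain FTL had 5357 RPKM in RNA-seq and 263 and 1842 RPKM in Ribo-seq (-3.66 and -0.65), so it was low in replicate 1 and within 2-fold of the median in replicate 2. Both messages carry an iron-responsive element near the cap, a hairpin that holds iron regulatory proteins and keeps ribosomes off when iron is scarce. Its loop letters CAGTGN are in capitals below, in the 5′UTR within exon 1 of each gene on GRCh37. EPAS1, the hypoxia factor HIF-2 alpha, carries the same kind of element.
FTH1, chr11:61735045-61735074, minus strand: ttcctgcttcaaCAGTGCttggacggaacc
FTL, chr19:49468592-49468621, plus strand: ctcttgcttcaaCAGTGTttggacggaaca
EPAS1, chr2:46524618-46524647, plus strand: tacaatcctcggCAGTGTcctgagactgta
The 6 letters alone are common and were found in the 5′UTR of 15.5% of the 6885 genes. EPAS1 had 14.9, 9.53 and 0.990 RPKM (0.08 and -2.11). In 2 tested members the elements lie in the 3′UTR and act on RNA stability. These members, the transferrin receptor TFRC (2.90 and 1.02) and the iron transporter SLC11A2 (1.35 and 1.17), were at least 2-fold high in both replicates. They made up 33.3% of the 6 tested members of the list, against 6.98% of all tested genes. FTH1, FTL and EPAS1 were thus at or below 0.08 in both replicates, whereas TFRC and SLC11A2 were above 1.

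The other low rows were TMSB4X, a small actin-binding protein (312 RPKM in RNA-seq, 41.5 and 29.7 RPKM in Ribo-seq, -2.20 and -2.46), TCEAL3 (-2.24 and -2.35, from 7 and 18 reads), PPP1R14B (-2.25 and -2.09), TBX1 (-2.05 and -2.21), FAM195B (-3.34 and -2.30, from 3 and 21 reads), LENG8 (-2.30 and -1.89), YBX1 and PHLDA3. YBX1, which encodes a cold-shock protein that coats messenger RNA and is known to bind its own message, had 278 RPKM in RNA-seq and 48.7 and 39.9 RPKM in Ribo-seq (-1.80 and -1.88). PHLDA3, a p53 target that restrains AKT, had 205, 33.6 and 31.1 RPKM (-1.89 and -1.79). None of these rows passed the limma test. RPSAP58, C22orf15 and the shared row of EIF3C and EIF3CL were also among the 12 lowest, with at most 5 footprint reads in either library. RPSAP58 is a pseudogene of RPSA, and EIF3C and EIF3CL are near-identical copies, so that uniquely placed reads may undercount them.

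The major histocompatibility complex of chromosome 6, where 13 rows were tested, stood apart in replicate 2. All 13 were above 0 in Ribo-seq control replicate 1 and KD replicate 1, and all 13 were listed at 0 in control replicate 2 and KD replicate 2. Among them was TUBB, a tubulin chain needed by every dividing cell, at 780.1 RPKM in RNA-seq and 726 RPKM in Ribo-seq replicate 1. CUTA had 384 RPKM in RNA-seq and 303 RPKM in replicate 1. Of the 7352 tested rows outside the region, 16 were at 0 in control replicate 2. Without the region, 19 genes were called high by limma and none low (unadjusted p under 0.05 for 247 genes).

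Genes grouped by function differed less than these extremes, and the replicates often disagreed on the size. The proteasome, which degrades proteins and whose subunits are made in matched amounts, had a median of 1.58 in replicate 1 and 0.01 in replicate 2 over 34 members. Cytosolic chaperones (1.27 and 0.05, 24 members) and coat and vesicle proteins (1.56 and -0.02, 22 members) showed the same gap. Nuclear-encoded subunits of oxidative phosphorylation had 1.09 and 0.22 over 81 members, of which 45 were above the median in both replicates and 10 below it in both. For the aminoacyl-tRNA synthetases, which charge transfer RNAs, the medians were 1.07 and 0.31, with 13 of 19 members above the median in both replicates and 2 below it. In comparison, 2452 and 2451 of all 7365 tested genes were above and below in both. Within these lists the highest members included PSMA2 (3.70 and 1.82), CLTC, the clathrin heavy chain (3.68 and 1.20), CCT8 of the chaperonin (2.67 and 1.35), NDUFB5 of complex I (2.70 and 2.16) and DARS (2.80 and 0.90).

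Zinc finger genes of the ZNF family, mostly transcriptional repressors, were on the low side in replicate 1. Their 96 tested members had medians of -0.69 and -0.03, with 46 below the median in both replicates and 14 above. None was at least 2-fold from the median in both, where 6.98% of all tested genes were high and 2.92% low. In both KD replicates, 19 of the 96 were at least 2-fold low and 3 high, against 10.4% and 15.4% of all tested genes. Immediate early and short-lived regulators had medians of -0.33 and 0.03, with 9 of 22 members below in both and 2 above. IER5 was the only one at least 2-fold low in both replicates, which is 4.55% of the list against 2.92% of all tested genes (67.2 RPKM in RNA-seq, 18.9 and 13.2 RPKM in Ribo-seq, -1.10 and -1.37).

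Other classes had medians within 2-fold of the typical gene in both replicates, several of them above it in replicate 1 only. Mitochondrial ribosomal proteins had 0.62 and -0.13 (71 members), glycolytic enzymes 0.65 and 0.15 (17 members), lysosomal enzymes and membrane proteins 0.63 and -0.14 (24 members), and SR and hnRNP splicing factors 0.40 and -0.14 (30 members). Rab GTPases (-0.17 and -0.06) and ubiquitin-conjugating enzymes (0.01 and 0.12) were centred on the median. The 123 solute carriers had 0.00 and -0.07, and 9 of them (7.32%) were at least 2-fold high in both replicates, close to the 6.98% of all genes. SLC38A2, a glutamine transporter, led them with 3.70 and 1.59. Initiation factors had 0.51 and -0.02 over 41 members. EIF4A2, a helicase that unwinds leaders, was their highest at 2.66 and 2.88, but its row also names 4 snoRNAs and a miRNA of its introns. The cell cycle list had 0.987 and -0.04 over 39 members, and CDK1, the kinase that drives mitosis, led it with 3.44 and 1.25.

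**Figure D3:**
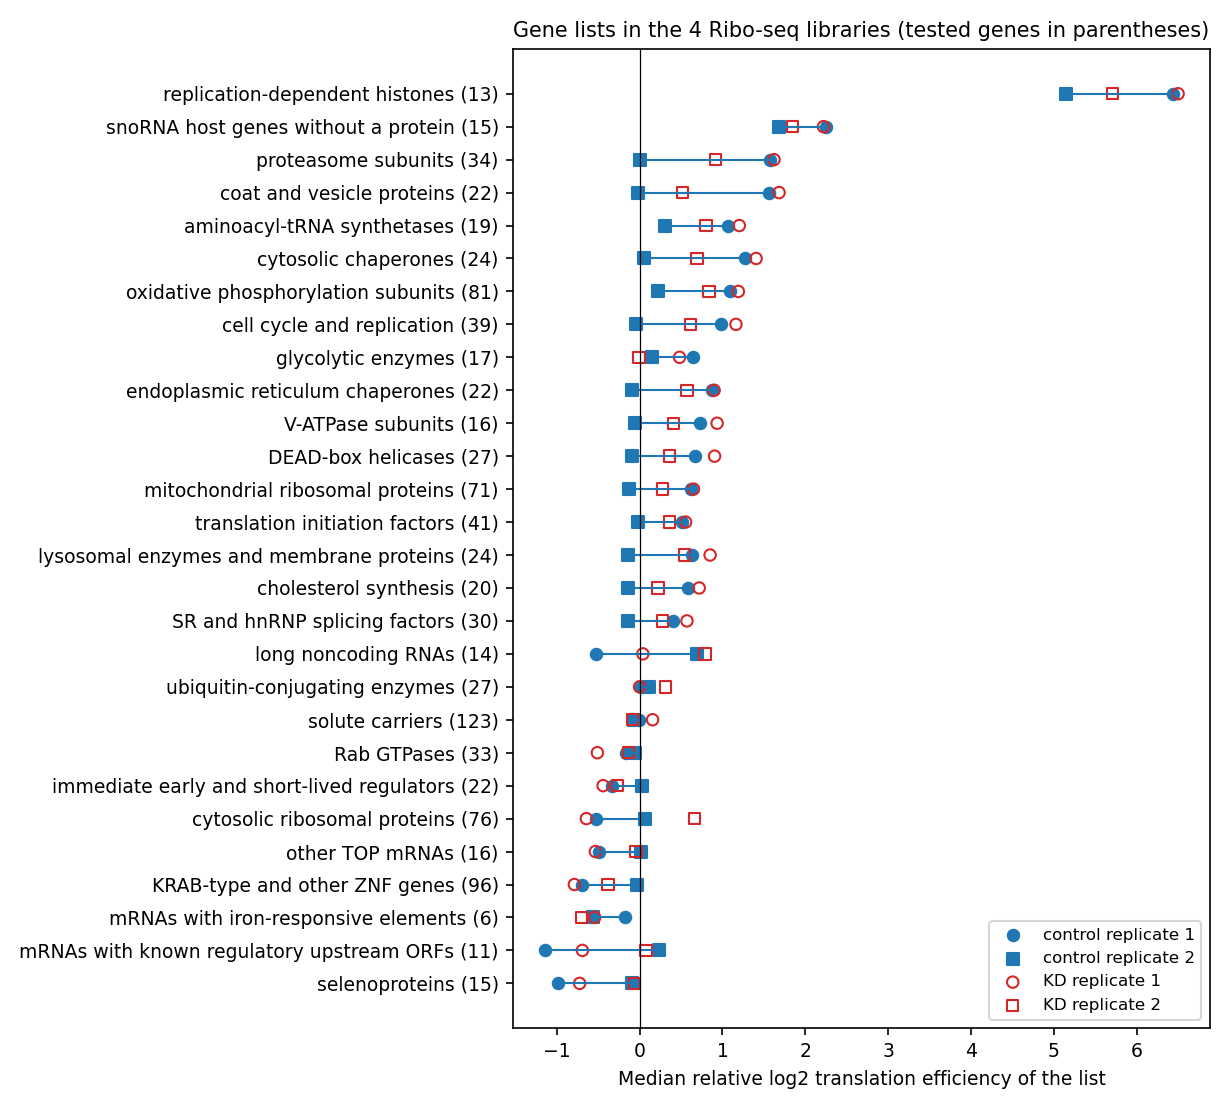
Median relative log2 translation efficiency of each gene list with at least 5 tested members in the 4 Ribo-seq libraries, each against the RNA-seq library of its own condition. Lines join the control replicates. The 13 histone genes (6.44 and 5.14) and 15 snoRNA hosts (2.25 and 1.69) stand apart from the lists of protein-coding genes, whose medians lie between -1.14 and 1.68 over the 4 libraries.

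The messages of cytosolic ribosomal proteins begin with a C followed by a run of pyrimidines, the terminal oligopyrimidine (TOP) tract through which growth signals control their translation. A C at the first base and C or T at the next 4 were found at the annotated start of 53 of 73 ribosomal protein transcripts (72.6%) and of 6.43% of all 6885. The tract is shown in capitals, within the first 20 bases of the 5′UTR on GRCh37, for a gene that was high and for one that was low in both replicates, and for the elongation factor EEF1A1.
RPS23, chr5:81574154-81574173, minus strand: CTCTTTCgctcaggcccgtg
RPS2, chr16:2014808-2014827, minus strand: CTTCTTTTCCgacaaaacac
EEF1A1, chr6:74230736-74230755, minus strand: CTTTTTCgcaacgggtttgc
The 76 tested ribosomal protein rows were centred near the typical gene, at -0.52 in replicate 1 and 0.06 in replicate 2. Of these, 25 were above the median in both replicates and 31 below it in both. At least 2-fold high in both replicates were 7 (9.21%, against 6.98% of all tested genes), namely RPS27, RPS27L, RPS23, RPSA, RPL41, RPL31 and RPS27A. At least 2-fold low were 6 (7.89%, against 2.92% of all tested genes), among them RPL10, RPL19, RPS2, RPS7 and RPS15. In RNA-seq the high rows ranged from 5.39 (RPS27) to 64.0 RPKM (RPSA), and the low rows from 93.7 (RPS7) to 1578 RPKM (RPL19). The median of the list in RNA-seq was 325 RPKM. RPS23 had 27.0 RPKM in RNA-seq and 55.5 and 91.0 RPKM in Ribo-seq (1.69 and 2.61). RPS2 had 418 RPKM in RNA-seq and 64.8 and 86.1 RPKM in Ribo-seq (-1.99 and -1.37), and RPL19 had 1578, 354 and 214 RPKM (-1.47 and -1.99). Ribosomal protein genes have many processed pseudogenes, and reads were counted where they were placed uniquely, so that single values are uncertain. The 390 genes with such a start outside the family had medians of 0.09 and 0.13, and other TOP messages, mainly elongation and initiation factors, had -0.49 and 0.01 over 16 members.

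Upstream reading frames take up scanning ribosomes before the main start. Of 11 tested genes known for such frames, ATF4 and its relative ATF5, transcription factors of the stress response, and PPP1R15A, which ends that response, lay below the median in both replicates. Only ATF5 was at least 2-fold low in both and only AZIN1 at least 2-fold high. Each is 9.09% of the list, against 2.92% of all tested genes low and 6.98% high. ATF4 had 146 RPKM in RNA-seq and 15.9 and 53.9 RPKM in Ribo-seq (-2.44 and -0.53). ATF5 had 46.2, 9.65 and 9.12 RPKM (-1.47 and -1.33) and PPP1R15A 33.9, 4.64 and 8.59 RPKM (-1.95 and -0.97). At the other end were AZIN1, an inhibitor of antizyme (1.57 and 1.21), PPP1R15B (0.89 and 1.25), and AMD1, an enzyme of polyamine synthesis, which had 13.8 RPKM in RNA-seq and 16.1 and 21.6 RPKM in Ribo-seq (0.89 and 1.502). CEBPA (-1.26 and 1.44), IFRD1 (-0.14 and 1.19) and SLC35A4 (-1.43 and 0.24) lay on both sides of the median, while DDIT3 (-1.14 and -0.57) and CEBPB (-0.36 and -0.31) lay below it. In replicate 1, DDIT3 had 3 reads, CEBPA 6 and PPP1R15A 11. The list medians were -1.14 and 0.24. Short upstream frames of these genes are printed whole, in capitals from start to stop codon, in the 5′UTR within exon 1 on GRCh37. ATF4 and ATF5 each have in addition a longer frame, of 180 bases, that overlaps the main start.
ATF4, chr22:39916653-39916664, plus strand: ATGGCGTATTAG
ATF5, chr19:50432531-50432542, plus strand: ATGGCTCTGTAG
AMD1, chr6:111195999-111196019, plus strand: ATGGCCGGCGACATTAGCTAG
CEBPA, chr19:33793328-33793345, minus strand: ATGCCGGGAGAACTCTAA
PPP1R15B, chr1:204380792-204380818, minus strand: ATGGTGTTGAAGCGTCGAGCCGACTAG
Counted over all tested genes with a coding region, the 4500 without an upstream ATG had median efficiencies of 0.20 and -0.07, those with 1 had -0.17 and 0.10, and the 1151 with 2 or more had -0.46 and 0.17. Efficiency thus went down with upstream ATGs in replicate 1 and up in replicate 2. KD replicate 1 (0.21, -0.16 and -0.52) and KD replicate 2 (0.05, -0.02 and -0.15) both went down.

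Selenoproteins, whose messages use a UGA codon for selenocysteine, had medians of -0.99 and -0.09 over 15 members. The glutathione peroxidases GPX1 (419 RPKM in RNA-seq, 67.9 and 71.5 RPKM in Ribo-seq, -1.92 and -1.64) and GPX4 (474, 69.2 and 117 RPKM, -2.08 and -1.11) were at least 2-fold low in both replicates (13.3% of the members, against 2.92% of all tested genes), and no member was 2-fold high, against 6.98%. SELO (-0.99 and -0.99), SEPW1 (-2.004 and -0.81), SEPX1 (-1.52 and -0.29) and TXNRD2 (-0.49 and -0.86) were below the median in both. SELK (0.71 and 1.91), SELT (0.90 and 1.52) and the shared row of EID3 and TXNRD1 (0.18 and 1.17) were above it. SEPN1 (-1.96 and 0.44), SEPHS2 (-0.99 and 0.69), SELM (-1.36 and 0.29), DIO2 (-0.07 and 2.43), SELS (0.68 and -0.53) and the row that holds C11orf31 (0.25 and -0.09) lay on different sides of it in the 2 replicates. Several replicate 1 values rest on few reads, with 1 for SELM, 6 for SEPX1, 7 for SEPW1, 10 for SELK and 11 for SEPN1. Among the 4 genes decoded by a ribosomal frameshift, the antizyme OAZ1 had 678 RPKM in RNA-seq and 106 and 249 RPKM in Ribo-seq (-1.98 and -0.55), OAZ2 had -0.64 and 0.59, OAZ3 had 0.47 and -0.11, and PEG10, a domesticated retroelement, had 20.7, 34.7 and 56.6 RPKM (1.40 and 2.30).

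Across all genes, efficiency followed base composition. The Spearman correlation with the GC content of the transcript was -0.69 in replicate 1 and -0.54 in replicate 2 over 7054 genes, and -0.71 and -0.75 in the KD libraries. This is a description across genes, which are not independent replicates and share the RNA-seq library. Genes were ordered by GC content and divided into 5 bins of 1410 or 1411. The bin with the lowest GC content (median 40.6%) had median efficiencies of 1.41 and 0.80, and the bin with the highest (63.1%) had -0.97 and -0.40. Of the genes in the lowest bin, 27.4% lay at least 2-fold above the median in both replicates, against 0.354% in the highest bin. The 514 high genes had a median GC content of 40.5% and a median length of 3519 bases, the 215 low genes 60.4% and 1927 bases, and all tested genes 52.1% and 2818.5 bases. Whether the relation to GC content arose in the cells or in making the libraries was not tested.

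Each replicate's ratio was then adjusted for GC content by a smooth curve. After this, 109 genes (1.55% of 7054) lay at least 2-fold above the median in both replicates and 144 (2.04%) at least 2-fold below. Of these, 91 and 62 had also been counted without the adjustment. All 13 histone genes stayed at least 2-fold high in both replicates, with medians of 7.04 and 5.44, as did 7 of the 9 rows of snoRNA hosts that were high before. The row of MATR3 and SNHG4 went to 0.64 and 0.20, and the remaining row had no adjusted value. FTH1 stayed low (-3.77 and -2.61), as did TMSB4X (-3.08 and -2.88), YBX1 (-2.28 and -2.08) and TCEAL3 (-2.22 and -2.26). TBX1 (-0.52 and -1.84) and PPP1R14B (-0.91 and -1.69) no longer passed 2-fold in both, and neither did TFRC (1.54 and 0.27) or SLC11A2 (0.29 and 0.63). AMD1, which had not been 2-fold high in both before the adjustment, went to -0.81 and 0.50. List medians moved as well. The adjusted medians were 0.85 and -0.08 for the aminoacyl-tRNA synthetases, 1.05 and -0.11 for the proteasome, 0.81 and 0.07 for oxidative phosphorylation, 0.44 and -0.23 for cytosolic chaperones and 0.93 and -0.12 for coat and vesicle proteins. The zinc finger genes had -0.30 and 0.02, the splicing factors -0.67 and -0.67, and the selenoproteins -1.04 and 0.01. Ribosomal proteins had -0.88 and -0.06, with 4 rows at least 2-fold high and 10 low. The correlation between replicates fell from 0.499 to 0.280.

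**Figure D4:**
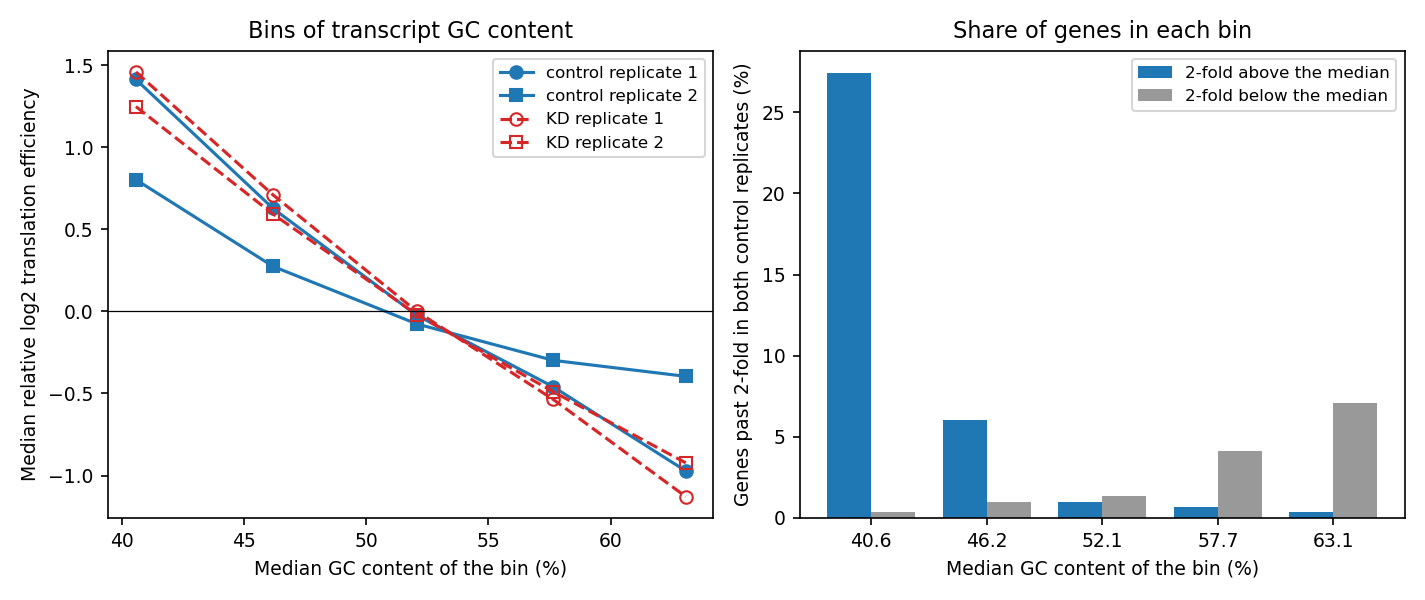
Left, median relative log2 translation efficiency of 5 bins of the 7054 tested genes with a transcript, ordered by transcript GC content, in the 4 Ribo-seq libraries. Right, the share of genes in each bin at least 2-fold above (27.4% in the lowest bin) or below the median in both control replicates. All 4 lines go down with GC content, and control replicate 2 is the least steep.

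Other properties gave weaker or opposite relations. The 3′UTR length had a Spearman correlation of 0.05 with efficiency in replicate 1 and 0.34 in replicate 2, and coding length -0.03 and 0.07. For 5′UTR length the sign differed, at -0.16 and 0.11. The RNA level itself, which is the denominator of the ratio, had -0.20 and -0.45, and the high genes were less abundant (median 9.30 RPKM) than the low ones (50.02 RPKM) or all tested genes (20.4 RPKM).

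The KD libraries, which the choice of genes did not use, gave the same measurement under another condition. They were not an independent repeat. Efficiencies correlated at 0.948 between control and KD replicate 1 and at 0.852 between control and KD replicate 2, against 0.499 between the control replicates. The difference of replicate 2 from replicate 1 correlated across genes at 0.824 between the conditions. The shares that follow are therefore a description. Of the 514 genes high in both control replicates, 493 (95.9%) were also at least 2-fold high in both KD replicates, where 15.4% of all tested genes were. Of the 215 low genes, 178 (82.8%) were also low in both KD replicates, against 10.4% of all. All 17 genes called high in control cells were high in both KD replicates. In KD cells the 13 histone genes had medians of 6.50 and 5.71 and the snoRNA hosts 2.22 and 1.84. The ribosomal proteins had -0.64 and 0.66, a wider split between replicates than in control cells. No list median lay above the median of all genes in both control replicates and below it in both KD replicates, or the reverse. Whether efficiencies differed between control and KD cells was not tested here.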

How the data were processed

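RNA-seq (1 library per condition) and Ribo-seq (2 per condition) were used, and 4 columns of RNA structure libraries were not. The authors aligned reads to hg19 with Bowtie2, kept uniquely mapped reads, counted them on RefSeq transcripts and deposited RPKM values. Adapter trimming is listed as cutadapt in the submitters' processing notes. The Ribo-seq library protocol is not given in the sources used here.

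Values were taken as log2(RPKM + 1), each library was centred on the median of the 7365 rows with at least 5 RPKM in RNA-seq control, and fold changes of low genes are understated on this scale. Ribo-seq was compared with RNA-seq in the 3 control libraries with limma 3.58.1 (R 4.3.3, moderated test with trend, two-sided, Benjamini-Hochberg adjustment over all rows, threshold 0.05), tested on simulated data beforehand. With 2 Ribo-seq and 1 RNA-seq libraries the spread rests on the Ribo-seq pair. Whole reads were recovered from the RPKM steps for 17787 of 17793 rows (tolerance 0.001).

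Sequences, GC content and lengths came from the GRCh37 genome with GENCODE 44 canonical transcripts, which may differ from the RefSeq models counted. Of the tested rows, 7054 matched a transcript and 526 name several genes. Named genes were the 12 highest and 12 lowest rows with no noncoding name by the smaller of the replicate values, the 3 highest and 6 lowest of the noncoding lists, the highest and lowest member of each list, and the members of the regulated lists. Members and lists were chosen with earlier results of these data known. Alternatives covered the pseudocount, the RNA-seq minimum, centring, the libraries fitted, GC content and omitted rows or libraries. Some genes are not reported here. Symbols that a spreadsheet turned into dates were left as they were.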

Additional observations from a re-analysis of the deposited data

How the results depend on the processing

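None of the 18 genes called by limma changed direction under the alternatives tried. Of the 152 named genes, 29 that were not called changed sign in 65 comparisons, and 62 of the values lost and 43 gained a limma call, besides 101 that gained one under the replicate block described below. Over 30 gene lists, medians moved by more than the spread between replicates in 77 of 539 comparisons. The median changed sign under at least 1 alternative for 24 of the 30 lists, also in 77 comparisons, of which 36 were among those that moved by more than the spread. With both replicates kept it changed sign for 23 lists in 61 comparisons. Among genes described above, the limma difference changed sign after the GC adjustment for AMD1 (-0.16), SELT (-0.44), IFRD1 (-0.52), OAZ2 (0.0594), SELM (0.20), CEBPB (0.47) and CEBPA (0.88), and without centring for the row of TXNRD1 (-0.11), IFRD1 (-0.26) and OAZ3 (-0.61). With no RNA-seq minimum it changed for IFRD1 (-0.0891) and OAZ3 (-0.44), with 1 RPKM for OAZ3 (-0.22), and with 20 RPKM for OAZ2 (0.0199), SELS (0.12) and the row of C11orf31 (0.13). With limma-voom it changed for OAZ3 (-0.0406) and CEBPA (0.26), with a pseudocount of 5 for OAZ3 (-0.0104) and CEBPA (0.12), and with quantile normalization for CEBPA (0.16). Leaving out a Ribo-seq replicate gave values that ranged over both signs, from -0.26 to 0.29 for OAZ3, -1.44 to 1.29 for CEBPA, -0.81 to 0.44 for OAZ2, -1.17 to 0.54 for SEPHS2, -1.54 to 0.14 for SELM, -1.61 to 0.0848 for SLC35A4, -2.14 to 0.29 for SEPN1, -0.24 to 2.28 for DIO2, -0.000961 to 1.02 for the row of TXNRD1, -0.31 to 1.04 for IFRD1, -0.24 to 0.0724 for the row of C11orf31 and -0.68 to 0.50 for SELS.

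The counts depended more on the settings. The high and low calls, 17 and 1 by limma, became 36 and 7 with an RNA-seq minimum of 1 RPKM, 6 and 3 with 20 RPKM, 115 and 34 with no minimum, 11 and 0 with a pseudocount of 0.1, 30 and 10 with quantile normalization, and 0 and 0 with all 6 libraries in the fit (unadjusted p under 0.05 for 445 genes). Low calls were 9 without centring, 4 with the minimum set on RNA-seq of KD cells, 3 without rows naming several genes and 0 among genes above 0 in both Ribo-seq libraries. Without Ribo-seq control replicate 1 or 2, high calls ranged from 8 to 11 and low calls were 0 in both cases (unadjusted p under 0.05 for 314 and 1256 genes), with the spread taken from the KD Ribo-seq pair. Among alternatives chosen after seeing the data, limma-voom on whole reads gave 10 low calls, the GC adjustment 5 (among them TUBB, TCF19, HMGN5 and PABPC3), omission of the MHC region 0, and a minimum of more than 100 reads in every control library, in place of the RPKM minimum, 73 high and 5 low calls of 1683 genes. Of these genes 46 were under 5 RPKM in RNA-seq, and they made up 32 of the 73 high calls and 0 of the low calls. All 17 high genes remained called under limma-voom, quantile normalization and omission of the MHC region, and 13 of the 15 tested remained after the GC adjustment. SEC61G and HIST1H1C were the exceptions.

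Genes at least 2-fold high and low in both replicates, 514 and 215, became 920 and 496 with a minimum of 1 RPKM, 197 and 75 with 20 RPKM, 203 and 66 with more than 100 reads, and 86 and 1834 without centring. The low count was 1446 with no minimum, and the high count was 265 with a pseudocount of 5 and 109 after the GC adjustment. No paired analysis was possible because the single RNA-seq control library carries no replicate number, as far as the 3 control libraries go. The labels number the Ribo-seq replicates alike in control and KD cells without saying what the numbers share, and the difference of replicate 2 from replicate 1 had a Pearson correlation across genes of 0.824 between the conditions. A replicate block on the 4 Ribo-seq libraries in the fit of all 6, chosen after seeing the data, gave 963 high and 1181 low calls, where the same fit without the block gave 0 and 0. It left 1 residual degree of freedom, and all 17 high genes were among its calls. The causes of these shifts were not tested. The limits are the depth of Ribo-seq, with a median of 42 reads per tested gene in replicate 1 and 118 in replicate 2, the single RNA-seq library, and labels that name poly(A) isolation but do not describe the preparation of Ribo-seq.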
